A study of Mus musculus with 12 samples.

Results

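Of 56248 merged CTCF sites in brain, heart and lung of mouse embryos, 7372 were listed only in homozygous mutants and are called mutant-only sites. Peak regions of the 6 deposited lists were joined wherever they overlapped by at least 1 bp, and a joined site counted as mutant-only when it carried at least 1 of the 3 mutant lists and none of the 3 wild-type lists. Mutant-only sites were 13.1% of all sites, against 22.3% for the 12535 sites that carried a wild-type list and no mutant list (wild-type-only sites), and 36341 sites carried lists of both genotypes. Sites were selected on the authors' peak calls, that is on presence in or absence from the deposited lists, so these counts are a description. A site missing from a wild-type list fell below that list's threshold, and the wild-type signal at mutant-only sites was not analysed here.

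The study asked how the R567W change in CTCF alters its binding to chromatin. Brain, heart and lung came from C57BL/6 embryos (C57BL/6 N in the study's methods) at E18.5 that were either Ctcf+/+ or Ctcf R567W/R567W, from a line in which the mutation was introduced by CRISPR/Cas9 editing of fertilized eggs and passed on by breeding. Each tissue and genotype gave 1 anti-CTCF ChIP library and 1 input library, 12 samples in all, and each ChIP library gave 1 peak list. How many embryos entered a library was not given in the sources used here. With 1 library per group no difference between the genotypes of a tissue could be tested, and peaks of a library are not replicates, so the tissue was the unit of comparison (n = 3). The differences of the 3 tissues are not fully independent, although the test over tissues treats them so. A mutant-only site had to be absent from all 3 wild-type lists, and some sites counted in more than 1 tissue.

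CTCF is a DNA-binding protein with a row of zinc fingers that organises chromosomes into loops and domains together with cohesin. Its central fingers read a core motif, and its last fingers, which include the mutated residue, contact an upstream motif that accompanies the core at some sites. In mammalian genomes CTCF also sits at many CpG-rich promoters, and short interspersed repeats of rodents are known to have spread copies of its core motif.

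The sequences of a few mutant-only sites are shown beside a wild-type-only site picked for its complete upstream motif, to show the motifs that were counted. Most core-motif peaks of both classes lacked the upstream motif. Each line gives 49 bases of GRCm38 on the strand of the motif, 5′ to 3′, with 30 upstream bases in lower case and the 19 bases matched by the core matrix in capitals. The upstream motif was searched as TGCAGTNCC in those 30 bases with at most 2 mismatches. Mroh5 (chr15:73839051-73839099, minus strand), Mef2d (chr3:88137951-88137999, minus strand), St3gal5 (chr6:72098850-72098898, minus strand) and Rcor1 (chr12:111045020-111045068, plus strand) name the nearest start sites of mutant-only sites in all 3 mutant lists. Ankrd52 (chr10:128374529-128374577, plus strand) is the strongest mutant-only peak of the lung. Gm38001 (chr3:9466500-9466548, minus strand) is a wild-type-only site of all 3 tissues, the strongest of those with the complete upstream motif 5 bases before the core.
Mroh5: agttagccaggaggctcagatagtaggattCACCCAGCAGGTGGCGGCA
Mef2d: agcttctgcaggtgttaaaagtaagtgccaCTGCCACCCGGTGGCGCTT
St3gal5: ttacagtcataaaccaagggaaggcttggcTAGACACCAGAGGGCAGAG
Rcor1: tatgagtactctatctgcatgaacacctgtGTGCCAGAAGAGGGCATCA
Ankrd52: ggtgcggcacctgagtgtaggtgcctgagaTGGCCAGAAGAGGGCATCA
Gm38001: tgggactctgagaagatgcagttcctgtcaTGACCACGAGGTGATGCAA
The best upstream match had 4 mismatches at Mroh5 and 3 each at Mef2d, St3gal5 and Rcor1. Ankrd52 had 2 mismatches, at a spacing of 19 bases from the core. The site near Gm38001 had 0 mismatches, and its core score of 8.59 bits was lower than the 18.9 bits at Mroh5 and the 16.0 bits at Mef2d.

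Mutant-only sites were mostly brain sites. Of the 7372, 5177 (70.2%) carried the brain list alone, 1538 (20.9%) the lung list alone and 19 (0.258%) the heart list alone. Brain and lung shared 619, whereas brain and heart shared 4, heart and lung 3, and 12 carried all 3 mutant lists. The wild-type-only sites had another make-up, with 7076 in lung alone, 2169 in brain alone, 240 in heart alone and 616 in all 3 tissues. Sites in at least 2 lists made up 638 of the mutant-only sites (8.65%, 95% Wilson interval 8.03 to 9.32) and 3050 of the wild-type-only sites (24.3%, 23.6 to 25.1). Intervals throughout cover counting error only.

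**Figure D1:**
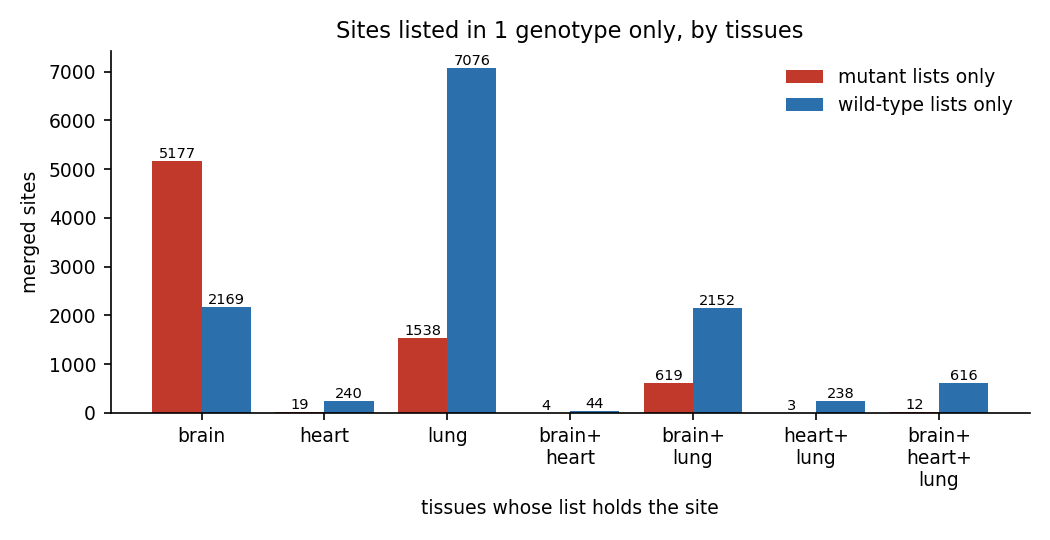
Number of merged sites (vertical axis) by the tissues whose list holds them (horizontal axis), for sites in mutant lists only and in wild-type lists only. The brain bar is the tallest of the mutant-only sites (5177) and the lung bar the tallest of the wild-type-only sites (7076).

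Counted as peak regions, mutant-only sites took 5813 of the 38390 regions of the mutant brain list (15.1%), 38 of 11515 in mutant heart (0.33%) and 2174 of 32498 in mutant lung (6.69%). The opposite counts, wild-type regions at wild-type-only sites, were 4982 of 36034 for brain, 1138 of 21059 for heart and 10085 of 44386 for lung. In brain the mutant-only peaks outnumbered the wild-type-only peaks, and in heart and lung they did not. The mutant list was likewise longer than the wild-type list in brain and shorter in heart and lung. The part of list length in these counts was not tested. The libraries differed little in depth as far as the lists allow it to be read, at 7.14 to 9.27 reads per kb on a relative scale. The wild-type lung list stood apart in local background, which at its peaks shared with a mutant list had a median of 3.06 times the lowest value of the list, against 1.05 to 1.18 in the other 5 lists. The part of this background in the lung counts was not tested. With both lung lists left out, sites on mutant lists only numbered 8984 and those in at least 2 lists 64. With both brain lists left out the numbers were 2880 and 22.

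Sites were narrow, with a median of 270 bp and a range of 178 to 1507 bp. The nearest wild-type region lay at a median distance of 6713 bp, and 1218 of the mutant-only sites (16.5%) had a wild-type region within 1000 bp. Just inside the rule, the sites at chr2:106694569-106695061, in the promoter of Mpped2, and at chr5:21701161-21701428, in the promoter of Napepld, lay 1 bp from a wild-type region and had fold enrichments of 3.78 and 3.25 in mutant brain. Just outside it, a site near Trim41 and a site in an intron near Gm49034 overlapped a wild-type region by 3 bp, with fold enrichments of 4.89 and 4.30. By chromosome, mutant-only sites made up 9.91% of the sites on chromosome X and 10.9% to 15.0% on the autosomes.

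Mutant-only peaks were weak peaks of their lists. The fold enrichment of a peak is the summit pileup over its local background as the authors' peak caller gave it. Its median at mutant-only peaks in brain was 4.63 (quartiles 3.71 and 5.90), in lung 5.03 (3.98 and 7.01) and in heart 3.78 (3.48 and 5.10). Peaks of the same mutant lists at sites of both genotypes had medians of 12.6, 19.5 and 9.92. In reads, the recovered median pileup at mutant-only summits of brain was 15, of heart 11 and of lung 13, against 42, 31 and 51 at sites of both genotypes. Because the rule reads the same lists, these differences in strength are a description and were given no test.

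The strongest mutant-only peaks of brain, heart and lung reached fold enrichments of 19.2, 9.58 and 26.4, whereas the strongest peaks at sites of both genotypes reached 286, 63.0 and 369. In the mutant brain list, 59.1% of the peaks in the weakest decile lay at mutant-only sites, 41.3% of those in the next decile and 25.9% of those in the decile after that, and 0 of the 3839 peaks in each of the strongest 2 deciles did. In mutant lung the weakest 3 deciles held 37.9%, 16.1% and 7.94%. The lowest 3 deciles together held 83.4% of the mutant-only peaks of brain, 97.4% of those of heart and 92.5% of those of lung. A −log10 q of at least 5 was reached by 57.4%, 31.6% and 53.7% of them, compared with 95%, 95.5% and 95.5% at sites of both genotypes. Requiring that threshold in the mutant lists alone left 4171 mutant-only sites, and 345 in at least 2 lists.

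**Figure D2:**
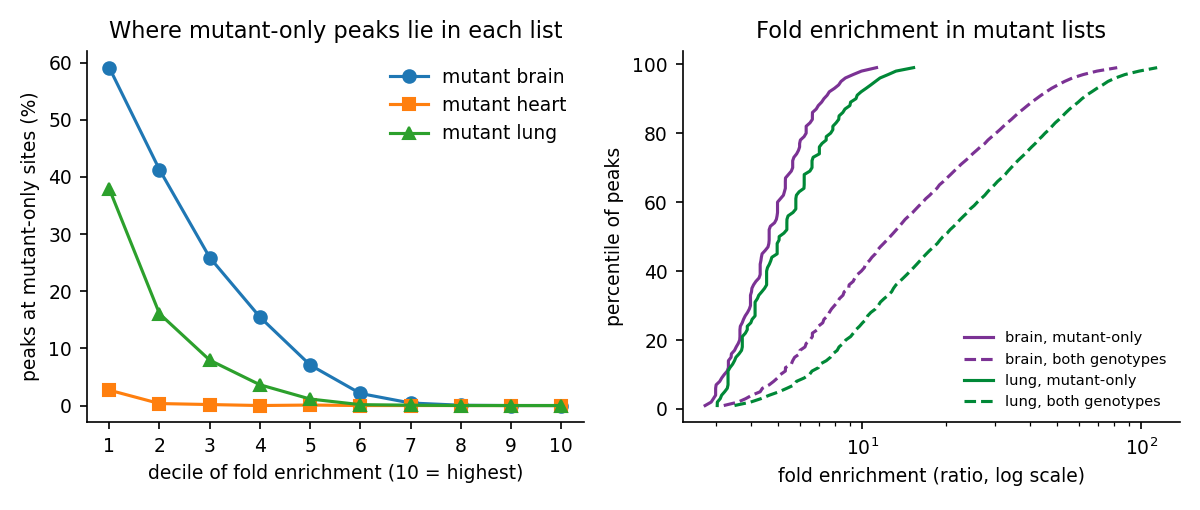
Left, percent of the peaks in each decile of fold enrichment (10 = highest) that lie at mutant-only sites, for the 3 mutant lists. Right, percentile curves of fold enrichment (ratio, log axis) at mutant-only peaks (solid) and at peaks of sites of both genotypes (dashed) in mutant brain and lung. The share falls from 59.1% in the lowest brain decile to 0 in the highest, and each solid curve lies to the left of its dashed curve.

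The core motif was less frequent at mutant-only peaks than in either other class, and far more frequent than in flanking sequence. It was scored with a 19-column matrix within 100 bp of the summit. In brain, 3605 of 5813 mutant-only peaks had it (62.0%, 60.8 to 63.3), against 87.7% at sites of both genotypes and 75.4% of wild-type peaks at wild-type-only sites. In heart the shares were 42.1% (16 of 38 peaks, 27.9 to 57.8), 94.8% and 69.0%. In lung they were 56.9% (1236 of 2174, 54.8 to 58.9), 88.9% and 70.8%. Windows 1100 bp from the mutant-only summits held a core motif in 6.41%, 5.26% and 6.72%, and the matrix read backwards, which keeps its base composition, matched at 5.92%, 10.5% and 5.61% of the mutant-only peaks.

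The difference from sites of both genotypes averaged −36.8 percentage points over the tissues (SD 14.1, n = 3) and pointed the same way in 3 of 3. Flipping the signs of the tissue differences in an exact permutation test (two-sided) gave p = 0.25, the smallest value that 3 tissues can give. Against wild-type-only peaks it averaged −18.1 points (SD 7.63, n = 3 tissues, exact sign-flip p = 0.25). Strength moved with this result. When the other peaks were weighted to the deciles of fold enrichment of the mutant-only peaks, the differences from sites of both genotypes were −7.79 points for brain, −41.3 for heart and −9.18 for lung. Weighted in the same way by rank within the list, the mean difference from wild-type-only peaks was −8.94 points, −11.9 for brain, −15.3 for heart and 0.404 for lung. A −log10 q of at least 5 in all 6 lists gave −8.81 points on average, and the same threshold in the mutant lists only turned the difference from wild-type-only peaks to 0.384 points, −2.73 for brain, −0.21 for heart and 4.09 for lung. A stricter match to the core matrix, at p of at most 1e-05, gave −7.76 points from wild-type-only peaks, −9.37 for brain, −0.32 for heart and −13.6 for lung.

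Where a core motif was present, it was a poorer match at mutant-only peaks than at sites of both genotypes. Its median score was 13.2 bits in brain and lung and 15.6 in heart, against 16.3, 16.4 and 17.6 at sites of both genotypes. Wild-type-only peaks had medians of 13.8, 13.9 and 12.9 bits, so that in heart the 16 mutant-only peaks had the higher median. The motif also lay less often at the summit, being centred within 25 bp of it in 55.1%, 56.3% and 68.0% of the mutant-only peaks with a core, and in 79.1%, 79.9% and 91.6% of those at sites of both genotypes.

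The upstream motif was rare at mutant-only sites. Among peaks with a core motif it was found in 575 of 3605 mutant-only brain peaks (16.0%, 14.8 to 17.2), in 1 of 16 heart peaks (6.25%, 1.11 to 28.3) and in 211 of 1236 lung peaks (17.1%, 15.1 to 19.3). At sites of both genotypes in the same mutant lists it was found in 25.9%, 22.8% and 25.2%. At wild-type-only peaks it was found in 36.4%, 37.7% and 35.1%. The same word searched in the mirrored window downstream of the core, as a background, matched at 11%, 25% and 14.2% of the mutant-only peaks with a core. In lung the interval of the mutant-only share overlapped that of its background (12.3 to 16.2), and in brain it lay above it (upper limit 12.1%).

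Over the tissues the mean difference in upstream motif share was −11.6 points from sites of both genotypes (SD 4.39, n = 3 tissues), and the mean difference from wild-type-only peaks was −23.3 points (SD 7.14, n = 3 tissues). Both were negative in 3 of 3 tissues, and exact sign-flip p was 0.25 for each, the smallest that can be had. With at most 1 mismatch allowed in the word, the mean differences were −4.53 and −14.6 points, negative in all 3 tissues. Counting only words that ended 5 or 6 bases before the core matrix, the spacing at which most close matches of the lists stood, the shares were 9.51% in brain and 8.41% in lung at mutant-only peaks, 17.3% and 16.4% at sites of both genotypes and 29.9% and 28.0% at wild-type-only peaks. None of the 16 mutant-only heart peaks with a core had such a word (0%, Wilson upper limit 19.4%). Weighting to the same deciles of strength gave differences of −12.8, −15.0 and −11.1 points for brain, heart and lung from sites of both genotypes.

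**Figure D3:**
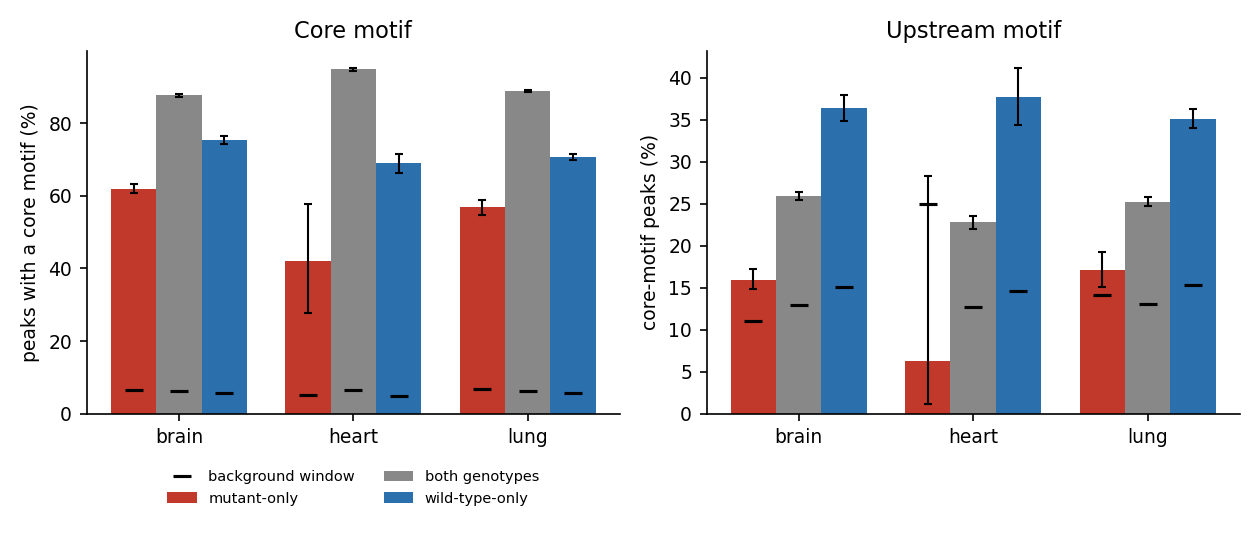
Percent of peaks with a core motif (left) and percent of core-motif peaks with the upstream motif (right) at mutant-only sites, sites of both genotypes and wild-type-only sites, by tissue. Error bars are 95% Wilson intervals, and black ticks mark the background windows (flanks 1100 bp from the summit on the left, the mirrored downstream window on the right). The mutant-only bar is the lowest of its tissue in both panels, and the heart bars rest on 38 and 16 peaks.

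Promoters were common among mutant-only sites. A summit lay within 1 kb of a transcription start site in 32.1% (30.9 to 33.3) of the brain, 31.6% (19.1 to 47.5) of the heart and 37.3% (35.3 to 39.3) of the lung peaks. The shares were 21.9%, 22.6% and 21.3% at sites of both genotypes and 9.69%, 11.8% and 18.3% at wild-type-only peaks. The mean difference was 11.7 points from sites of both genotypes (SD 3.73, n = 3 tissues, exact two-sided sign-flip p = 0.25) and 20.4 points from wild-type-only peaks (SD 1.79, n = 3 tissues, exact p = 0.25). Intergenic summits were fewer than at sites of both genotypes in brain (23.3% and 33.0%) and lung (22.9% and 33.5%), and intronic summits were 40.7% and 36.3% of the mutant-only peaks of those tissues.

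The promoter share varied with peak strength. At sites of both genotypes in mutant brain it was 50.6% in the weakest decile, 17.9% in the ninth and 30.6% in the strongest. In heart it was 33.7% in the weakest and 36% in the strongest, so the strongest held the higher share there. In the weakest decile of the mutant brain list, promoters took 43.4% (41.4 to 45.5) of mutant-only peaks and 50.6% (48.2 to 53.1) of peaks at sites of both genotypes, and in the next decile 26.2% and 25.4%. In brain deciles 3 to 6 the mutant-only share was the higher, in deciles 4, 5 and 6 at 20.7%, 27.9% and 23.5% against 18.6%, 19.4% and 18.2%, and in decile 5 the intervals did not overlap (22.9 to 33.6 and 18.1 to 20.7). In lung the mutant-only share was the lower in the weakest decile, at 50.6% against 53.9%. In the next lung decile it was 20.7% (17.4 to 24.4) against 27.4% (25.7 to 29.1), where the intervals did not overlap. The lung shares were 19.4% and 19.8% in decile 3, 16.1% and 16.0% in decile 4, and 21.6% and 17.8% in decile 5. Weighted to the same deciles, the promoter difference from sites of both genotypes averaged −1.53 points, −1.47 for brain, 0.288 for heart and −3.41 for lung. The sign thus turned in brain and lung and stayed positive in heart. The difference from wild-type-only peaks kept its sign in that comparison, at 14.1 points on average, but in lung it dropped to 5.95 points. With a −log10 q of at least 5 in the mutant lists only, the mean promoter differences were 6.99 points from sites of both genotypes and 11.2 from wild-type-only peaks (1.58 for lung). Joining regions up to 500 bp apart lowered the difference from sites of both genotypes to 6.49 points (1.64 in heart), and defining sites by short windows around the summits raised it to 21.4. Among sites in a single mutant list it was 4.13 points, 8.04 for brain, −6.79 for heart and 11.1 for lung. The core motif share, by contrast, was lower at mutant-only peaks in each decile that held at least 20 of them, in brain from 46.4% against 54.3% in the weakest decile to 80.2% against 89.6% in the sixth, although in lung the intervals of the classes overlapped in deciles 2 and 4.

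**Figure D4:**
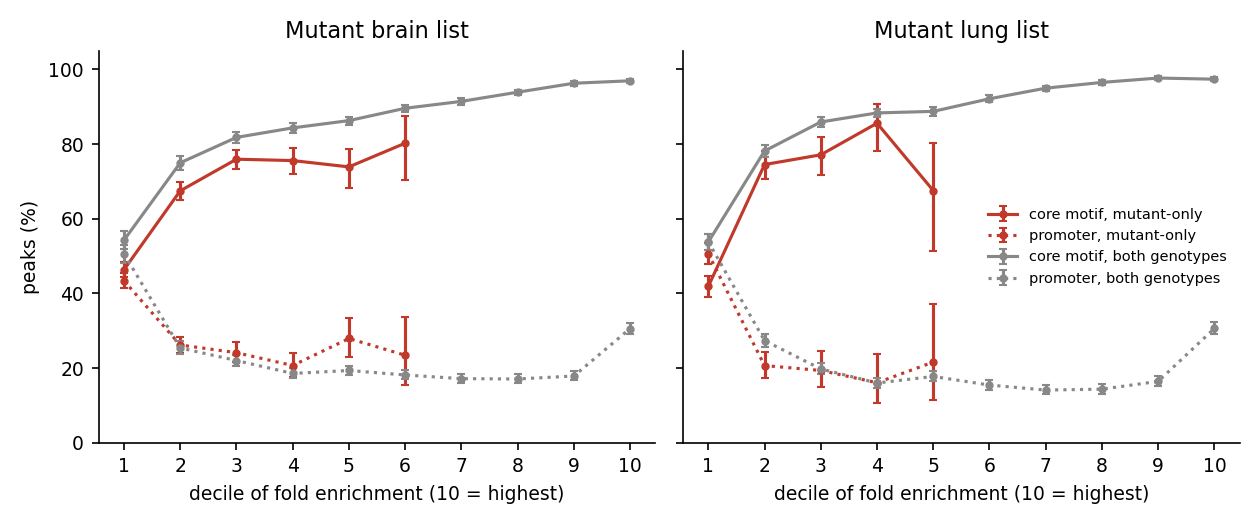
Percent of peaks with a core motif (solid) and percent in promoters (dotted) by decile of fold enrichment in the mutant brain and lung lists, at mutant-only sites and at sites of both genotypes, with 95% Wilson intervals. Deciles with fewer than 20 peaks of a class are left out. The solid mutant-only line runs below the grey line in every decile drawn, and in the weakest brain decile the promoter shares were 43.4% and 50.6%.

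In brain and lung, mutant-only peaks without a core motif lay in promoters more often than those with it. In brain, 54.5% of the 2208 mutant-only peaks without a core motif lay in promoters, against 18.4% of the 3605 with it, and their mean GC contents were 58.0% and 49.6%. In lung the corresponding promoter shares were 57.7% and 21.8%, and in heart, on 22 and 16 peaks, 27.3% and 37.5%. The groups overlapped, since 663 of the 1866 mutant-only promoter peaks of brain and 269 of the 810 of lung had a core motif. A similar split was present at sites of both genotypes, with 56.9% and 17.0% in mutant brain. Of the 2367 mutant-only sites whose strongest summit lay in a promoter, 1972 (83.3%) had a protein-coding gene as the nearest start site, 97 an antisense transcript and 82 a lincRNA.

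CpG-rich windows, with a GC content of at least 50% and an observed to expected CpG ratio of at least 0.6 over the bases within 100 bp of the summit, made up 23.6%, 28.9% and 30.3% of the mutant-only peaks of brain, heart and lung, against 16.3%, 18.1% and 16.0% at sites of both genotypes and 4.44%, 5.54% and 12.4% at wild-type-only peaks. Mean GC content of the mutant-only peaks was 52.8% in brain (SD 11.3 over peaks), 55.5% in lung and 51.9% in heart. It was 4.59 points above that of wild-type-only peaks (SD 1.32, n = 3 tissues, exact two-sided sign-flip p = 0.25). From sites of both genotypes it differed by 1.71 points on average (SD 2.0, exact p = 0.5 over 3 tissues), and this mean turned to −0.75 after weighting to deciles of strength. GGGCGG, the word bound by SP and KLF factors, was found on either strand within 50 bp of the summit in 10.7% of mutant-only brain peaks and 16.7% of lung peaks, compared with 3.57% and 3.56% in their flanks and 8.47% and 8.80% at sites of both genotypes. Among brain peaks without a core motif the mutant-only share was the lower (16.1%, 14.6 to 17.7, against an interval of 17.3 to 19.7 at sites of both genotypes), and among such lung peaks the higher (23.5% and 20.3%). ATGGCG, the word of YY1, was found less often at mutant-only peaks, at 3.39% in brain and 3.13% in lung against 4.98% and 5.06% at sites of both genotypes. Among peaks with a core motif the shares were 3.08% and 2.83% against 5.08% and 5.17%. Among peaks without one the intervals overlapped, in brain (3.16 to 4.79 at mutant-only peaks and 3.68 to 4.94) and in lung (2.52 to 4.90 and 3.51 to 4.85). This word can also match letters of the core motif itself. CCGGAAG, the word of ETS factors, was found in 1.34% of mutant-only brain peaks and 2.67% of lung peaks, compared with 0.568% and 0.414% in their flanks in that order. At sites of both genotypes it was found in 1.16% in brain, where the intervals overlapped (1.08 to 1.67 at mutant-only peaks and 1.05 to 1.29), and in 1.17% to 1.43% by its interval in lung (2.07% to 3.43% at mutant-only peaks). TATAAA was found in 3.87% of mutant-only brain peaks and 2.21% of lung peaks, below the 6.60% and 6.72% in their flanks. At sites of both genotypes it was found in 3.19% and 2.92%. A match of letters is a description and does not show that a factor was bound.

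Repeats formed the other large group. The summit lay in repeat-masked sequence at 31.6%, 15.8% and 20.6% of the mutant-only peaks of brain, heart and lung, against 14.2%, 5.65% and 12.2% at sites of both genotypes and 30.6%, 15.6% and 30.7% at wild-type-only peaks. The difference from sites of both genotypes averaged 12.0 points (SD 4.77, n = 3 tissues, exact two-sided sign-flip p = 0.25), and 3.97 points after weighting to deciles of strength, 7.30 for brain, 4.72 for heart and −0.11 for lung. Masked summits were more frequent among core-motif peaks, being 44.9% of mutant-only brain peaks with a core motif and 9.87% of those without.

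Many of these core motifs were copies of the same sequence. The stretch CAGAAGAGGGCATC, which is visible in the capitals of Rcor1 and Ankrd52 above, filled the same 14 columns of the core motif at 599 of the 4473 mutant-only sites with a core motif (13.4%), and its first 10 bases, CAGAAGAGGG, at 1457 (32.6%). This stretch was picked after the sequences had been seen. In brain and lung it was the commonest 14-base core of each class of peaks. In brain it stood at 543 of 3605 mutant-only core motifs (15.1%, 13.9 to 16.3), against 2.44% at sites of both genotypes and 11% at wild-type-only peaks. Of those 543 peaks, 94.8% had the summit in repeat-masked sequence. In lung it stood in 5.91% of mutant-only core motifs, 1.88% at sites of both genotypes and 11.1% at wild-type-only peaks. Among peaks of the lowest 3 deciles the shares of mutant-only peaks and of sites of both genotypes were 17.0% and 7.72% in brain and 6.07% and 5.41% in lung. The masked sequence carries no repeat names in the genome used, so the repeat family was not identified here. With repeat-masked summits left out, the upstream motif remained less frequent than at sites of both genotypes by a mean difference of −13.1 points and than at wild-type-only peaks by −22.0 points.

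Sites listed in more than 1 mutant tissue were richer in promoters. Taking the strongest peak of each site, promoters made up 30.5% (29.4 to 31.6) of the 6734 mutant-only sites in a single list, 49.0% (45.1 to 53.0) of the 626 in 2 lists and 6 of the 12 in all 3. At wild-type-only sites the shares ran the other way, from 19.8% of 9485 through 9.16% of 2434 to 7.63% of 616. Strength rose with the number of lists as well, with median fold enrichments of 4.63, 6.60 and 8.84 at the mutant-only sites, and its part in the promoter shares was not tested. The core motif was present at 60.1%, 64.2% and 11 of 12 of the mutant-only sites, and at 66.5%, 80.6% and 80.5% of the wild-type-only sites. Upstream motifs were found at 16.2% and 16.4% of the mutant-only sites with a core motif in 1 and 2 lists and at 0 of 11 in all 3 lists, with a Wilson upper limit of 25.9%. At wild-type-only sites the upstream shares were higher with more lists, from 30.5% through 41.2% to 43.5%. At 631 sites that carried the mutant brain and lung lists, the fold enrichments of the libraries had a Spearman rho of 0.424 and a Pearson r of 0.413 across sites, which share genome position and base composition and are not replicates.

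The 12 sites in all 3 mutant lists were listed in the most tissues. The first by summed rank lay at chr15:73838764-73839446 in the promoter of Mroh5, 609 bp from the start site, with brain, heart and lung fold enrichments of 17.7, 6.95 and 13.5. The site at chr8:122376251-122376893 lay in the promoter of Zc3h18, which encodes a nuclear RNA-processing factor, with values of 9.55, 7.14 and 18.6. At chr3:88137803-88138206, 4390 bp from the start of Mef2d, a transcription factor of muscle and neurons, the values were 7.31, 5.29 and 12.8. Heart was the lowest of the tissues at these 3 sites.

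The promoter of Pcnx4, a membrane protein gene of the pecanex family, held a site at chr12:72536111-72536594 with fold enrichments of 11.4, 4.58 and 6.22 in brain, heart and lung. An intronic site near St3gal5, which encodes the synthase of the ganglioside GM3, lay at chr6:72098745-72099060 with 7.87, 3.42 and 9.37, and a wild-type region lay 763 bp away. The site in an intron near Gm17491 (chr8:22506009-22506359) had 8.31, 3.73 and 7.40. Near H2al1j, a histone H2A variant gene of the male germ line, an intergenic site on chromosome X at 11443533 to 11444013 had 6.62, 6.5 and 6.19, the closest values of these sites. An intronic site near Rcor1, the corepressor that works with REST, lay at chr12:111044848-111045371 with 6.62, 4.76 and 6.31. Of these 8 sites the core motif was called in all 3 lists at 7, and at H2al1j in 2. Over all 12 the heart pileup ranged down to 9 reads, at St3gal5.

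**Figure D5:**
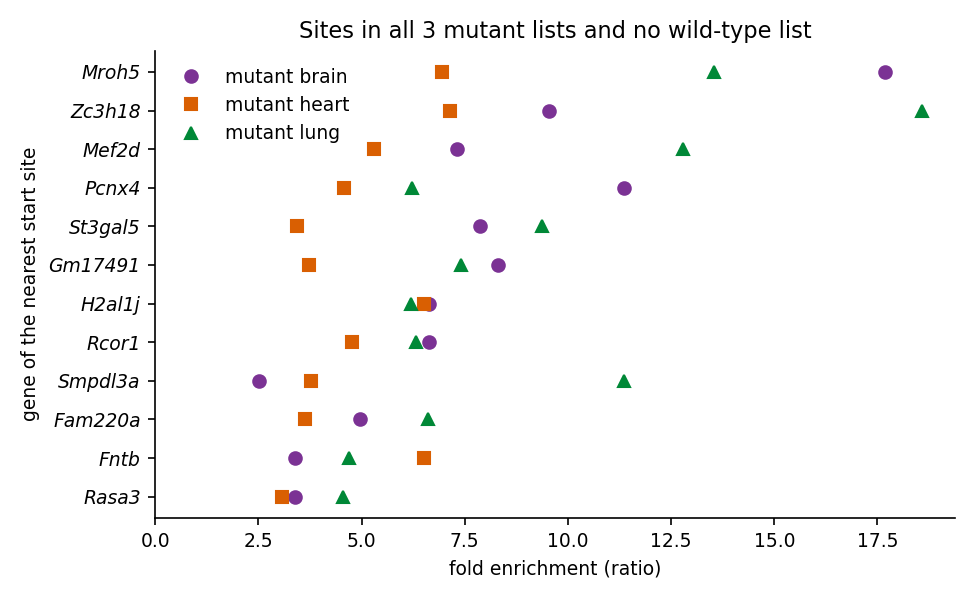
Fold enrichment (ratio, horizontal axis) in mutant brain, heart and lung at the 12 sites listed in all 3 mutant lists and in no wild-type list, by the gene of the nearest start site. The values run from 2.51, at Smpdl3a in brain, to 18.6, at Zc3h18 in lung.

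The strongest mutant-only peaks of single lists were as follows. In mutant brain, Sptbn4, which encodes a spectrin of the axon initial segment, had a promoter peak at chr7:27396456-27396888 with a fold enrichment of 19.2 and a pileup of 57, and an intronic peak near Fut10, a fucosyltransferase gene, at chr8:31189198-31189574 had 18.9. These ranked 11259 and 11490 among the 38390 regions of the list, and the nearest wild-type regions lay 809 and 21856 bp away. In mutant heart the highest was an intronic peak near Tfeb, a regulator of lysosome genes, at chr17:47759775-47760087, with 9.58 and no core motif. In mutant lung the highest were an intergenic peak 2544 bp from Ankrd52, a subunit gene of a protein phosphatase, with 26.4 and a pileup of 63, an intronic peak near Gm25805 at chr16:8771161-8771453 with 23.9 and an intergenic peak near Gm45003 at chr7:73886174-73886471 with 21.9. The sites near Ankrd52 and Gm25805 also carried the mutant brain list, and the site near Tfeb also carried the mutant lung list. The nearest wild-type regions lay 1906 bp from the site near Ankrd52, 1461 bp from Gm25805, 20746 bp from Gm45003 and 8666 bp from Tfeb.

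Genes with a mutant-only summit within 1 kb of a start site numbered 2159 of 21924 protein-coding genes (9.85%), while 43.4% had a summit of any list there and 8.01% a wild-type-only summit. Forebrain regulators, the transcription factors of the embryonic telencephalon, had the highest share of the 13 gene lists examined, with 11 of 36 genes (30.6%, 18 to 47), and 22 of the 36 had a summit of any list. The strongest were Bcl11a, Pou3f3, Nfib and Zic1, which carried the mutant brain list alone with fold enrichments of 7.06, 6.79, 5.23 and 4.64. None of these 4 peaks had a core motif, and their pileups were 25, 24, 15 and 14 reads. Wild-type-only summits lay at 3 of the 36.

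Among genes of GABAergic neurons, the inhibitory cells of the brain, 5 of 30 had a mutant-only summit and none a wild-type-only summit. The share was 16.7%, with an interval of 7.34 to 33.6 that holds the 9.85% of all genes. Pvalb, a calcium-binding protein of interneurons, had a fold enrichment of 7.34 in mutant brain, 49 bp from its start. The transcription factor Maf had 4.95 and the calcium buffer Calb1 had 4.62, also in the brain list alone. Of the synaptic genes, 5 of 40 had such a summit (12.5%, 5.46 to 26.1), led by the glutamate receptor subunit Grin2a at 6.10, the syntaxin Stx1a at 4.36, the scaffold Shank2 at 4.33 and Grin1 at 3.75. The share of synaptic genes was near that of all genes, and wild-type-only summits also lay at 5.

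Immediate-early genes, which respond to neuronal activity or growth factors, had mutant-only summits at 6 of 28 (21.4%, 10.2 to 39.5, against 9.85% of all genes) and wild-type-only summits at 8. A summit of any list lay at 20 of the 28 (71.4%, against 43.4% of all genes). Nr4a3 had a fold enrichment of 6.71 and Bdnf 5.87 in mutant brain alone. Klf4 had 4.02 in brain and 5.78 in lung, and Atf3 4.58 in lung alone. Imprinted genes had mutant-only summits at 7 of the 34 matched (20.6%, 10.3 to 36.8), with a summit of any list at 17, and wild-type-only summits at 4. Among them Gnas, which encodes a G protein subunit, had 7.57 in brain and 9.81 in lung with pileups of 37 and 36. Nnat had 5.57 and Ascl2 5.30 in brain, and Ube3a, the gene of Angelman syndrome, had 4.03 in lung.

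Lung genes had a mutant-only summit at 6 of 34 (17.6%), an interval of 8.35 to 33.5 that holds the 9.85% of all genes, and a wild-type-only summit at 2. A summit of any list lay at 14 of the 34. Of the cardiac genes, 1 of 34 had a mutant-only summit (2.94%) and 2 a wild-type-only summit. Id2, a regulator of the distal lung tip, had fold enrichments of 4.65 in brain and 7.01 in lung, the hedgehog receptor Ptch1 had 6.01 in lung alone, the growth factor receptor Fgfr2 had 3.88 in brain alone and the phosphate transporter Slc34a2 had 3.71 in lung alone.

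Clustered protocadherins, adhesion genes of neuronal identity whose promoters carry CTCF sites, had mutant-only summits at 6 of 56 (10.7%), close to the share of all genes, and wild-type-only summits at 5. Pcdha5 had fold enrichments of 9.93 in brain and 7.25 in lung, and Pcdhgb2 had 7.42 and 7.01. Pcdha2 had 7.33 and Pcdha6 6.95 in brain alone. Over the whole cluster, 35 sites were listed, of which 6 were mutant-only, 5 wild-type-only and 24 of both genotypes. Among all merged sites, 13.1% were mutant-only and 22.3% wild-type-only. According to the study's methods, binding at most of these promoters was weak and MACS2 defaults hardly detected it. The study therefore chose its regions there by hand from the signal, whereas the counts here rest on the default calls. Members of a gene family like this resemble each other in sequence, and reads that match several of them could be lost, because only uniquely mapped reads were kept.

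Ribosomal protein genes had a mutant-only summit at 10 of 83 (12.0%, 6.68 to 20.8), near the 9.85% of all genes. As many of them, 10, had a wild-type-only summit. A summit of any list lay at 60 of the 83 (72.3%, against 43.4% of all genes). Rps15a was highest at 6.49 in brain, followed by Rps2 at 6.34. Rpl39 had 6.29 in brain and 4.95 in lung, and Rps13 had 4.77 in brain. Histone genes had a mutant-only summit at 7 of 67 (10.4%, also near the share of all genes). They had a wild-type-only summit at 12 and a summit of any list at 34. Neighbouring genes such as Hist1h2ai and Hist1h2bl shared the same peak, at 5.80 in lung. Hist1h2ae and Hist1h2bg shared another, at 4.52 in brain. Hox genes had a mutant-only summit at 1 of 39 (2.56%, 0.454 to 13.2), Hoxa5 with 3.02 in lung, and a wild-type-only summit at 4. A summit of any list lay at 9 of the 39. Olfactory receptors had a mutant-only summit at 1 of 1092 (0.0916%, against 9.85% of all genes), Olfr94 with 3.81 in brain, and a wild-type-only summit at 4. A summit of any list lay at only 8 of the 1092 (0.733%, against 43.4% of all genes). Of 19 genes for CTCF, cohesin and their partners only the cohesin loader Nipbl had a mutant-only summit at its start (5.26%, 0.935 to 24.6). Its peak had 3.63 in brain and a pileup of 14 reads. A wild-type-only summit lay at 1 of the 19 and a summit of any list at 11.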

How the data were processed

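CTCF ChIP-seq of 3 tissues and 2 genotypes gave 6 peak lists. According to the methods of the study, the authors added chromatin of HEK293T, a human kidney cell line, as a spike-in, used Trim Galore for trimming and Bowtie2 for alignment to mixed mm10 and hg38 genomes, kept uniquely mapped reads and called peaks per library with MACS2 at default options. The lists hold no spike-in scaling, and the control library of each list was not given in the sources used here. The authors' deposited measures were fold enrichment (a ratio with a pseudocount of 1), −log10 p-values and q-values, and a score derived from the q-value that was not used. The depth of each library was read as a relative density from the recovered background, so absolute read numbers are unknown. Input libraries were not analysed here.

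Lines with the same region were counted as 1 region. Regions were merged with bedtools 2.31.1 and classified by the lists they overlapped. Members and gene lists were chosen with earlier results of these data known. Named sites were the first 8 in all 3 mutant lists by summed rank, the 3 highest per list, up to 4 genes per gene list and the sites next to the overlap rule, and some of these are not reported here. Pileup and background were recovered from the fold enrichment and Poisson p, which on simulated peaks returned 99.9% of 20000 pileups. The core matrix (19 columns, p of 1e-04) was learned from the 2000 strongest wild-type brain peaks, of which 1947 contributed. Sequences and repeat masking came from RefSeq GRCm38 and genes from GENCODE M21 basic. Shares carry 95% Wilson intervals. Differences over tissues were tested by flipping their signs in an exact permutation test (two-sided), using Python 3.11.15 and numpy 2.4.6. Alternatives changed the q threshold, merging, site definition, chromosomes, tissues, strength, motif settings, promoter distance and, chosen after seeing the data, single-list sites, upstream spacing and repeats.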

Additional observations from a re-analysis of the deposited data

Results flagged for a closer look

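The tissues differed in direction in the comparisons that follow, and none of these differences between tissues was tested. The mean GC content of mutant-only peaks minus that of peaks at sites of both genotypes was 1.39 points for brain, −0.10 for heart and 3.85 for lung. The heart value rests on 38 peaks. All 3 tissues were positive with a −log10 q of at least 5 in all lists (2.09, 1.62 and 3.52 points) and all 3 negative after weighting to deciles of strength (−1.26, −0.59 and −0.40). The share of repeat-masked summits at mutant-only peaks minus that at wild-type-only peaks was 1.07 points for brain, 0.236 for heart and −10.1 for lung, where the wild-type list also had the raised local background given above. After weighting to deciles of strength all 3 were negative, at −1.84, −2.74 and −8.57. The log2 ratio of mutant-only to wild-type-only peak regions was 0.22 for brain, −4.90 for heart and −2.21 for lung. Only in brain was the mutant list longer than the wild-type list. The median core score of mutant-only peaks minus that of wild-type-only peaks was −0.62 bits for brain, 2.70 for heart and −0.71 for lung. Mutant-only peaks without a core motif minus those with it differed in promoter share by 36.1 points for brain, −10.2 for heart and 35.9 for lung. The upstream word was found at mutant-only core motifs more often than in the mirrored downstream window by 4.94 points for brain and 2.91 for lung, and the heart value was −18.8 on 16 peaks. The intronic share minus that at sites of both genotypes was 0.515 points for brain, 5.11 for heart and −3.97 for lung.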

How the results depend on the processing

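Of 90 alternative values, 82 kept their direction or, for counts, stayed within 1.5 times, 5 counts moved by more than 1.5 times and 3 mean differences changed sign. A −log10 q of at least 5 in the mutant lists only gave 4171 sites and 345 in at least 2 lists, and its core motif difference from wild-type-only peaks was 0.384 points. This setting filters a single genotype. Without the brain lists the counts were 2880 and 22, and without the lung lists 64 sites stood in at least 2 lists. Weighting to strength deciles turned the promoter and GC differences from sites of both genotypes to −1.53 and −0.75 points. The cause of each sign change was not tested. No library could be left out within a group, and 3 tissues cannot give a p below 0.25. Weak peaks near the calling threshold, with pileups from 7 reads, limit what absence from a list shows. The heart shares rest on 38 peaks.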
